A study of Mus musculus with 2 samples.

Results

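Splenic red pulp macrophages were compared by single-cell RNA sequencing (scRNAseq) between PEP-WT and PEP-619WW mice infected with lymphocytic choriomeningitis virus clone 13 (LCMV-cl13), a strain that sets up a chronic infection. A barcode, which stands for 1 droplet, was taken as a red pulp macrophage when it held at least 5 unique molecular identifiers (UMIs, each counting 1 captured RNA molecule) of *C1qa* and *C1qb* together, at least 1 of *Vcam1*, and 0 of the T cell gene *Cd3e* and of the B cell gene *Cd79a*. This gate held 108 of 14821 barcodes in PEP-WT (0.729%, 95% Clopper-Pearson interval 0.598 to 0.879%) and 101 of 8576 in PEP-619WW (1.18%, 0.960 to 1.43%), 209 of 23397 in all. The members were thus chosen by the UMI counts of these genes, whose levels are given only as a description. In the GRCm38 annotation *Vcam1* (ENSMUSG00000027962) lies at chr3:116109949-116129688, minus strand, and *C1qa* (ENSMUSG00000036887) and *C1qb* (ENSMUSG00000036905) lie near each other at chr4:136895917-136898803, minus strand, and at chr4:136880129-136886187, minus strand.

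Red pulp macrophages are the resident macrophages of the spleen that lie in its blood-filled cords. They take up aged and damaged red blood cells, break down the heme with heme oxygenase 1 (*Hmox1*) and biliverdin reductase (*Blvrb*), store the iron in ferritin (*Fth1*, *Ftl1*) and return it to the blood through ferroportin (*Slc40a1*). Their identity depends on the transcription factor *Spic*, and they carry the adhesion molecule *Vcam1* and make the complement component C1q, which is built from the products of *C1qa*, *C1qb* and *C1qc*. During infection they also sense virus and respond to interferon.

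Both groups were C57BL/6 mice, 6 to 12 weeks old in the study as a whole, infected with 1000000 PFU of LCMV-cl13 and examined 8 days later. PEP-WT mice carried the wild type *Ptpn22* gene, and PEP-619WW mice were homozygous for the pro-autoimmune allele of *Ptpn22*, made with CRISPR/Cas9, in every cell of the body. Splenocytes from 4 to 5 mice were pooled per genotype, sorted for live CD45+ cells and run as 1 library, and no uninfected library was analyzed here. With 1 library per genotype there was no replicate and no test, so intervals cover counting error only and a difference between libraries cannot be told apart from a difference between genotypes.

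The sample labels call the tissue Liver and the cells a Jurkat line and tumor infiltrating cells, whereas the extraction protocol and the study's methods describe splenocytes. All 6 hepatocyte genes examined (*Alb*, *Apoa1*, *Ttr*, *Serpina1a*, *Fgb* and *Cyp2e1*) were at 0 UMIs in the members of both libraries, and so was *Clec4f*, the defining gene of liver Kupffer cells. *Vsig4* had 2 UMIs in PEP-WT and 0 in PEP-619WW, and *Timd4* had 9 and 0. *Cd209b*, a marker of splenic marginal zone macrophages, was also at 0. The whole list of 8 Kupffer cell genes was not absent, and only 1 of them was at 0 in both libraries. It summed to 187 CPM in PEP-WT and 178 CPM in PEP-619WW, against 23.2 and 13.8 CPM in the monocyte gate described below. *Cd5l*, at 144 and 153 CPM, made up most of the sum in the members. Whether any member came from liver was not tested. Each genotype had 2 deposited runs of counts, and the values below are from the first unless the second is named. The numbers of barcodes and of genes per barcode that the study's methods give are those of the second run, so whether the pools and the sort described there apply to the first run is uncertain. In the second run the same gate took a share of 24.7% in PEP-WT and of 0.943% in PEP-619WW. Its cells differed from those of the first run in some genes of red pulp macrophages. *Spic* was at 5.74 and 1.20 CPM and *Slc40a1* at 44.8 and 13.2 CPM, with PEP-WT first. These levels lay far below those of the first run. Other such genes were not lower in the second run: *Hmox1* was at 1070 and 510 CPM, *Maf* at 591 and 781 CPM and *C1qc* at 2386 and 2517 CPM. *Xist*, which is expressed in female cells, was at 253 and 0 CPM in the second run. Its level in the first run is not given here, so the sex of the mice in those libraries is not shown.

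Red pulp macrophage genes that the gate did not use were far above their level in other gates of the same libraries. The transcription factor gene *Spic* was at 217 CPM in PEP-WT and 197 CPM in PEP-619WW (summed over members). The same gene was at 13.4 and 6.76 CPM in a monocyte gate (*Ccr2* and *Ly6c2* present, *Cd3e* and *Cd79a* absent), at 9.45 and 9.81 CPM in a B cell gate (*Cd79a* present) and at 13.4 and 8.17 CPM in a T cell gate (*Cd3e* present), with PEP-WT first. Ferroportin (*Slc40a1*) was at 403 CPM in PEP-WT and 394 CPM in PEP-619WW, against 12 and 20.6 CPM in the monocyte gate. Heme oxygenase 1 (*Hmox1*) was at 515 CPM in PEP-WT and 463 CPM in PEP-619WW, against 66.0 and 65.6 CPM in monocytes. *C1qc*, the third C1q chain, *Mertk*, a receptor for dying cells, *Adgre1*, which encodes F4/80, and *Treml4* were likewise highest in the members among these gates in both libraries. The hemoglobin scavenger receptor gene *Cd163* had 3 UMIs in PEP-WT and 0 in PEP-619WW.

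**Figure D1:**
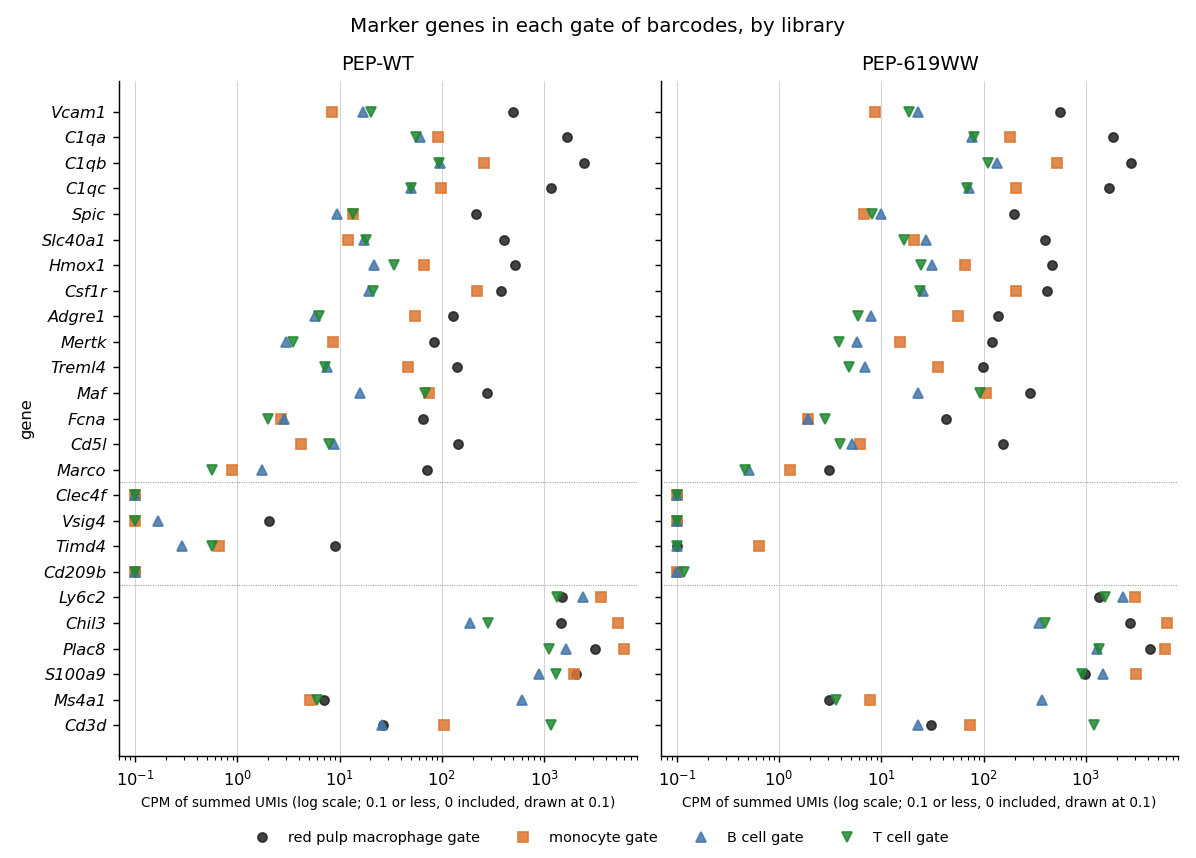
Level of 25 marker genes in the red pulp macrophage gate and in 3 other gates, for PEP-WT (left) and PEP-619WW (right), as CPM of summed UMIs on a log axis, with values of 0.1 or less drawn at 0.1. From Vcam1 to Fcna the black circles of the red pulp macrophage gate lie to the right of the other gates in both libraries, and Clec4f is at 0 throughout.

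The genes that stood furthest above all other barcodes, beyond those of the gate, were described by their fold over the rest in each library. They included *Gdf15*, a stress-induced cytokine (20-fold in PEP-WT and 25.3-fold in PEP-619WW), *Ms4a7*, a membrane protein of macrophages (19.6- and 23.3-fold) and *Fcna*, which encodes ficolin A (20.7- and 18.3-fold). Between the libraries these genes had log2 ratios of -0.16 (-0.64 to 0.31), -0.15 (-0.50 to 0.20) and -0.61 (-1.20 to -0.03). Among the members with fewer than 2 markers of other cell types the ratios were 3.42 for *Gdf15*, -0.16 for *Ms4a7* and -2.35 for *Fcna*, and those of the macrophage genes *Adgre1* and *Cd5l* were -1.17 and -1.20, against 0.11 and 0.09 over all members. That set held 46 and 35 members, and only 1102 genes kept at least 50 UMIs, so ratios of less abundant genes there rest on few UMIs. The most abundant transcripts of the members were those of *Tmsb4x*, *Actb*, *Fth1*, *Malat1*, *Cd74*, *Lyz2* and *Ftl1*, beside *Gm42418*, which can collect ribosomal RNA reads.

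To set single barcodes side by side, each was thinned to 2000 UMIs, which left 82 members of PEP-WT and 74 of PEP-619WW and dropped 26 and 27 that were shallower. A *Spic* UMI was then found in 24.4% and 25.7% of members, against 1.33% and 1.67% of B cell gate barcodes, and without thinning in 50% and 51.5% of members. A *Slc40a1* UMI was found in 36.6% and 37.8% of thinned members and in 2.00% and 2.00% of B cell gate barcodes. At this depth most members of either library showed no UMI of either gene, and the shares in the 2 libraries lay close together.

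The members also carried genes of other cells. The monocyte gene *Ly6c2* was at 1490.3 CPM in PEP-WT and 1343 CPM in PEP-619WW, with a UMI in 66.7% and 73.3% of members, and was at 3588 and 3030.5 CPM in the monocyte gate. It was also at 2388 and 2285 CPM in the B cell gate. *Chil3*, a chitinase-like protein of monocytes and macrophages, was at 1469 CPM in PEP-WT and 2666 CPM in PEP-619WW. In PEP-WT 62 members and in PEP-619WW 66 members held at least 2 markers of neutrophils, plasmacytoid dendritic cells, NK cells, platelets, T cells or B cells, and the members with fewer than 2 such markers numbered 46 and 35. The 10 monocyte markers summed to 7411 and 9854 CPM in the members and to 19081 and 19692 CPM in the monocyte gate. Their part in the differences below was not tested.

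The edges of the gate were inspected once. Of the members, 42 in PEP-WT and 41 in PEP-619WW held exactly 1 *Vcam1* UMI, and their *Spic* level was 65.5 and 78.2 CPM. Barcodes just outside, with enough C1q but 0 *Vcam1* UMIs, numbered 174 and 136 and had *Spic* at 63.6 and 22.4 CPM. The 23 and 22 members with 5 or 6 C1q UMIs had *Slc40a1* at 136 and 203 CPM, and the 22 barcodes of each library with 3 or 4 had it at 78.0 and 119 CPM. *Spic* at this edge was at 50.2 and 147 CPM inside and at 156 and 25.2 CPM outside, so in PEP-WT it was higher outside the gate. The absence of *Cd3e* and *Cd79a* removed 188 and 146 barcodes that met the other criteria, and these were deep, with a median of 20913 and 23652 UMIs.

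Depth was alike in the 2 groups of members. A member held a median of 7050 UMIs in PEP-WT (544 to 50973) and 7285 in PEP-619WW (533 to 53281), against 2832 and 3293 over all barcodes of each library, and the members summed to 989064 and 974586 UMIs. The 2 libraries shared 39 barcode sequences, none of them among the members.

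Hemoglobin RNA differed more between the libraries than any other abundant transcript, and the difference was not limited to macrophages. The members held 4491 hemoglobin UMIs in PEP-WT and 154 in PEP-619WW, or 4541 and 158 CPM, a log2 ratio of -4.84 (-5.09 to -4.61). Of these UMIs, 74.1% in PEP-WT and 79.2% in PEP-619WW came from 3 barcodes, and the highest barcode was 31.1% and 1.35% hemoglobin. A hemoglobin UMI was nevertheless seen in 69.4% of PEP-WT members and 24.8% of PEP-619WW members. The same direction was found in the monocyte gate (log2 ratio -4.57), the B cell gate (-2.92) and the T cell gate (-1.93). In the B cell gate hemoglobin was at 4436 CPM in PEP-WT, close to its level in the members. The part of hemoglobin RNA in the other differences was not tested, and leaving hemoglobin, immunoglobulin and mitochondrial UMIs out of the totals gave 44 higher and 82 lower genes in place of the 46 and 80 below.

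**Figure D2:**
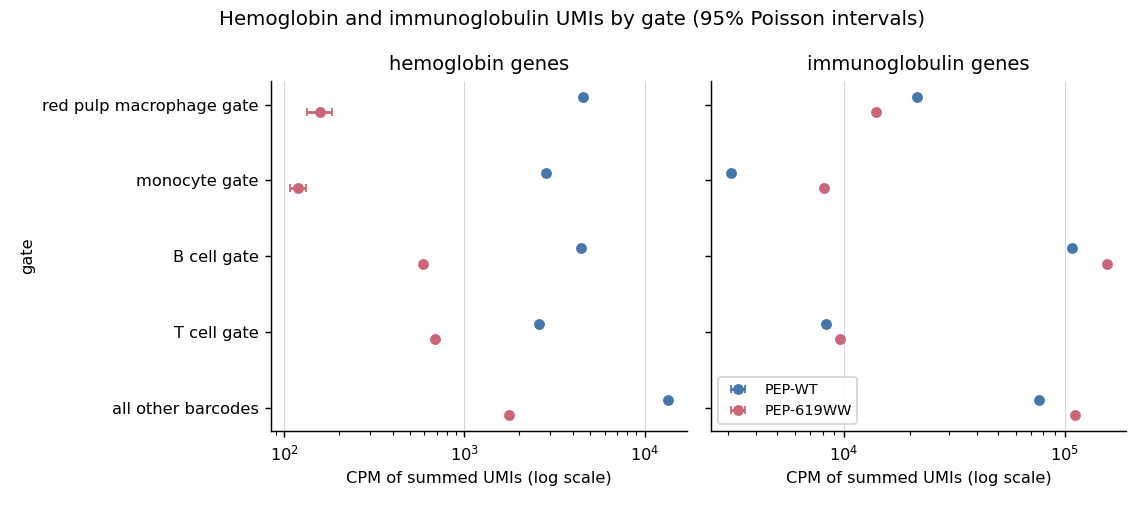
Summed hemoglobin (left) and immunoglobulin (right) UMIs per 1000000 in each gate, PEP-WT in blue and PEP-619WW in red, on log axes with 95% Poisson intervals, most of which are narrower than the point. Hemoglobin is lower in PEP-619WW in every gate, 4541 against 158 CPM in the members, while immunoglobulin is lower in the members and higher in the B cell and monocyte gates.

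Markers of other cell types were summed in the same way. Immunoglobulin genes took 2.15% of member UMIs in PEP-WT and 1.40% in PEP-619WW, with a median of 0.132% and 0.212% per member, and 3 barcodes held 71.2% of them in each library. The 10 neutrophil markers summed to 4468 and 2626 CPM in the members, and to 4748 and 8399 CPM in the monocyte gate. *Ltf*, *Camp*, *Ngp* and *Ly6g* were each under 15 UMIs in either library. The 9 plasma cell markers summed to 21552 and 13766 CPM, with *Tnfrsf17* at 0 in both. Lower sums were also found for the 7 NK cell markers (126 and 34.9 CPM), the 7 plasmacytoid dendritic cell markers (1042 and 591 CPM), the 6 platelet markers (176 and 48.2 CPM) and the 7 marginal zone macrophage markers (273 and 134 CPM), while the 10 inflammatory monocyte markers were higher (7411 and 9854 CPM). *Bst2*, which is also an interferon-stimulated gene given below, made up most of the plasmacytoid dendritic cell sum in both libraries. *Nr1h3*, given below among lipid-handling genes, made up most of the marginal zone macrophage sum. These 2 sums therefore do not show the level of those cell types. The part of these cell types in the differences below was not tested. Mitochondrially encoded genes took 2.68% and 3.03% of member UMIs, and ribosomal protein genes 17.4% and 18.6%.

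Across all genes, 4869 had at least 50 UMIs over the members of both libraries. Of these, 46 were at least 2-fold higher in PEP-619WW (0.945%), 80 at least 2-fold lower (1.64%) and 126 either way (2.59%). The 95% counting interval of each left out a ratio of 1. The minimum of 50 UMIs and the 2-fold limit already bring this about, so it adds no support to the calls. The median log2 ratio was -0.02, and the quartiles were -0.25 and 0.21. Many calls drew on few cells: in 41 of the 80 lower genes a single barcode held over 25% of a library's UMIs, and with the highest barcode of each gene left out 36 of the 46 and 73 of the 80 were still at least 2-fold. With the minimum of 50 UMIs applied again to what was left (4417 genes), 35 of the 46 and only 48 of the 80 were still called. The lower genes included all 4 hemoglobin genes tested, and 2 higher and 3 lower genes encoded immunoglobulin chains.

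**Figure D3:**
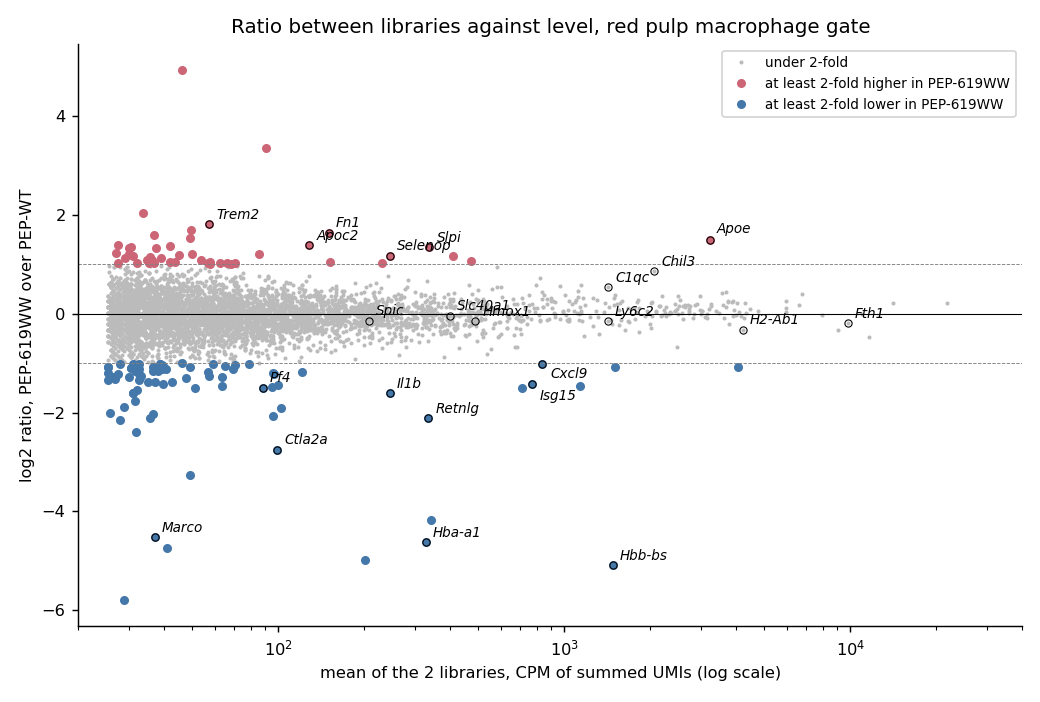
Log2 ratio of PEP-619WW over PEP-WT against the mean level of the libraries, for the 4869 genes tested in the red pulp macrophage gate, each point a gene, with 46 higher genes in red and 80 lower genes in blue. Most genes lie near 0, the hemoglobin genes lie lowest among abundant genes, Apoe stands highest among abundant genes, and Spic, Slc40a1 and Hmox1 lie near 0.

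Type I interferon-stimulated genes were lower in PEP-619WW almost throughout. Of 45 genes listed, 43 were in the files and 40 had at least 50 UMIs. Of these 40, 37 had a ratio below 0, and the interval lay wholly below 0 in 27 and wholly above 0 in none. The share of all tested genes with such intervals is not given here. Counts of intervals, for this list and those below, are therefore a description only. The median log2 ratio was -0.49, beside -0.02 for all genes, but only 1 gene passed 2-fold, beside 1.64% of all genes, and none was 2-fold higher. The same list had a median of -0.67 in the monocyte gate and -0.73 over all other barcodes, so the shift was seen outside the macrophages too. In the second run, where the gate took 2352 barcodes of PEP-WT and 104 of PEP-619WW with the low *Spic* levels given above, the list had the opposite sign, with a median of 0.86, and *Isg15* had a log2 ratio of 0.71.

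The gene that passed 2-fold was *Isg15*, a ubiquitin-like protein that is attached to other proteins during antiviral defense (chr4:156199424-156200818, minus strand). It was at 1124 CPM in PEP-WT and 423 CPM in PEP-619WW, a log2 ratio of -1.41 (-1.58 to -1.25). The RNA was spread over the members: a UMI was present in 88.9% and 69.3% of them, and the highest barcode held 5.49% and 9.71% of its UMIs. Per member the median level was 839 CPM in PEP-WT (quartiles 308 to 1574) and 244 CPM in PEP-619WW (0 to 517), so the distributions overlapped while the lower quartile of PEP-WT was above the median of PEP-619WW. At 2000 UMIs, *Isg15* was found in 75.6% of PEP-WT members and 41.9% of PEP-619WW members. It was also lower in PEP-619WW in the monocyte gate (880.1 and 312 CPM) and the B cell gate (317 and 124 CPM).

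Among regulators of the response, *Irf7*, the factor that amplifies type I interferon production, was at 838 CPM in PEP-WT and 529 CPM in PEP-619WW (log2 ratio -0.66, -0.82 to -0.50). *Stat2*, a transcription factor of type I interferon signaling, had a log2 ratio of -0.47 (-0.87 to -0.07), and *Irf9*, which binds DNA together with it, one of -0.35 with an interval that held 0 (-0.88 to 0.18). *Usp18*, which removes ISG15 and dampens receptor signaling, was at 81.9 CPM in PEP-WT and 47.2 CPM in PEP-619WW (-0.80, -1.35 to -0.26).

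Among effectors, *Ifit1*, *Ifit2* and *Ifit3*, which bind viral RNA or its complexes, had log2 ratios of -0.74, -0.59 and -0.63. *Bst2*, which tethers budding virus to the cell surface, was at 829 CPM in PEP-WT and 520.2 CPM in PEP-619WW (-0.67, -0.83 to -0.51), and *Ifi27l2a* at 3047 CPM in PEP-WT and 1906 CPM in PEP-619WW (-0.68, -0.76 to -0.59). The RNA sensors *Ifih1* and *Ddx58* had ratios of -0.52 (-0.94 to -0.10) and -0.44 (-0.90 to 0.01). *Rsad2*, which encodes viperin, differed less (-0.22, -0.54 to 0.11), and with its highest barcode left out the ratio was -0.70. The 3 genes above 0 were *Eif2ak2* (0.06), *Lgals3bp* (0.20) and *Oas2* (0.30), each with an interval that held 0.

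Promoters of the interferon-stimulated genes were searched because most of this list had lower ratios together. Of the 40 tested genes, 30 had a RefSeq promoter window (build GRCm38.p6, the 250 bases before the start). The core of the interferon-stimulated response element, read as GAAA, any 2 bases and GAAA, was present on either strand in 12 of the 30 (40.0%), beside 4.50% of the 3914 genes tested that had a window and 3.46% of all 27025 genes in the table. The 12 genes with a match had a median log2 ratio of -0.58 and the 18 without one of -0.51. Of the interferon gamma-induced genes given below, 10 of 24 with a window had a match (41.7%), while the median ratio of that list was -0.19. The element is named for interferon-stimulated genes, so its frequency in them adds no support to their lower ratios. *Isg15* is shown as the gene past 2-fold (chr4:156200819-156201068, minus strand), with *Ifit1* (chr19:34640639-34640888, plus strand), *Ifit3* (chr19:34583279-34583528, plus strand) and *Bst2* (chr8:71537473-71537722, minus strand) as effectors with 2 matches each. Capitals mark each match, and the 3 matches of *Isg15* overlap, as do the 2 of *Bst2*.
Isg15: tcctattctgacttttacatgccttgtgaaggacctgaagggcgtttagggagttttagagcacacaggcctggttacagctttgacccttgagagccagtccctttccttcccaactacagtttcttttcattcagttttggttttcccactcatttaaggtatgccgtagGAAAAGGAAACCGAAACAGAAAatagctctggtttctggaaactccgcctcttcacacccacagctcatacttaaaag
Ifit1: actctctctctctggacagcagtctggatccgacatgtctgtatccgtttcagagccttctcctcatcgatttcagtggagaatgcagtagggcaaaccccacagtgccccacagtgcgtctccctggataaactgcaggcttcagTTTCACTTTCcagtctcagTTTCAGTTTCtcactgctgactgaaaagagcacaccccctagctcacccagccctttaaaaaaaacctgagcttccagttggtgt
Ifit3: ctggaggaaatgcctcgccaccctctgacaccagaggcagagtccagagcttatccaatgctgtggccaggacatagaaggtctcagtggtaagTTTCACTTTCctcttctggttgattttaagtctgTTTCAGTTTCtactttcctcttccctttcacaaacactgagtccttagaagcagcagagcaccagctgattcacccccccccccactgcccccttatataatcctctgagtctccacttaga
Bst2: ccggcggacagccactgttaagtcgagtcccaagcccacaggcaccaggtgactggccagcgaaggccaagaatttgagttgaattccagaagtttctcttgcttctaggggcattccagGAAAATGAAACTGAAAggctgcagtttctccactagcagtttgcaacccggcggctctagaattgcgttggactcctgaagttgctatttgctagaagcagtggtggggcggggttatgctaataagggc
A match is only a run of letters, and binding at these windows was not measured.

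Genes of heme and iron handling, the main task of red pulp macrophages, lay around a ratio of 1. Of 30 genes listed 18 were tested, 7 had a log2 ratio above 0 and 11 below, and the median was -0.13. None passed 2-fold, a count near the background, since 2.59% of all genes did. The iron exporter *Slc40a1* was level between libraries (log2 ratio -0.03, -0.24 to 0.17), as far as the interval allows. *Hmox1* had a ratio of -0.15 (-0.34 to 0.03). A single PEP-619WW barcode held 150 of its 451 UMIs, and without the highest barcode of each library the ratio was -0.56. Its sign was not stable: among the 46 and 35 members with fewer than 2 markers of other cell types it was 1.47, and at 2000 UMIs a member it was 0.15. *Spic* itself, which heme induces in monocytes that become these cells, had a ratio of -0.14 (-0.43 to 0.15).

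Among the other members of the list, *Blvrb* was at 724 CPM in PEP-WT and 665 CPM in PEP-619WW (-0.12, -0.28 to 0.03), and the heme transporter gene *Slc48a1* had 116 and 92 UMIs (-0.31, -0.72 to 0.09). Ferritin heavy chain (*Fth1*) was at 10445 CPM in PEP-WT and 9141 CPM in PEP-619WW, slightly lower in PEP-619WW (-0.19, -0.23 to -0.15), while ferritin light chain (*Ftl1*) was slightly higher (0.12, 0.06 to 0.17), and each had a UMI in every member. *Pcbp2*, which delivers iron to ferritin, was higher (0.40, 0.19 to 0.61), and its relative *Pcbp1* was at -0.20 (-0.46 to 0.05). *Bach1*, the heme-sensing repressor of *Hmox1*, had a ratio of 0.36 (-0.07 to 0.80) and *Nfe2l2*, which activates it, one of -0.27 (-0.62 to 0.08). The members with fewer than 2 markers of other cell types gave this list a median of 0.23 in place of -0.13, with *Slc40a1* at 0.39 and *Spic* at 0.23. In the second run *Hmox1* (1070 and 510 CPM), *Slc40a1* (44.8 and 13.2 CPM) and *Fth1* (23325 and 14287 CPM) were lower in PEP-619WW, with PEP-WT first. *Bach1* (77.9 and 117 CPM) and *Nfe2l2* (150 and 190 CPM) were higher in PEP-619WW there.

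Lipid-handling genes held the most abundant of the higher genes. Of 18 tested, 3 were 2-fold higher (beside 0.945% of all genes) and 0 lower, with a median of 0.16. *Apoe*, the apolipoprotein that carries cholesterol out of macrophages, was at 1688 CPM in PEP-WT and 4774 CPM in PEP-619WW, a level 2.83 times higher (log2 ratio 1.5, 1.42 to 1.58). A UMI was present in 84.3% and 90.1% of members, and the median per member was 1208 CPM (quartiles 244 to 4113) and 2687 CPM (993 to 5891), so the ranges between the quartiles overlapped. As a mean of the members' own CPM, which gives each barcode equal weight, the log2 ratio was 0.84, and among the members with fewer than 2 markers of other cell types 0.99, both short of 2-fold. In the second run it was 0.22. *Apoe* was higher in PEP-619WW in the monocyte gate as well (471 and 1249 CPM).

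The neighboring apolipoprotein gene *Apoc2* had 70 and 181 UMIs (1.39, 0.99 to 1.81) and kept at least 2-fold under 12 of 12 alternatives within the first run. Outside the members *Apoc2* was higher in PEP-619WW too, with ratios of 1.07 in the monocyte gate, 1.24 in the B cell gate and 1.36 in the T cell gate. *Trem2*, the lipid-sensing receptor that signals through *Tyrobp*, had 25 and 87 UMIs (1.82, 1.16 to 2.52), with a UMI in 13% and 29.7% of members. *Trem2* was not among the 9 genes at 100 or more UMIs that were also 2-fold higher in thinned members. *Tyrobp* itself was level (0.06, -0.02 to 0.15). Lipoprotein lipase (*Lpl*) was at 397 CPM in PEP-WT and 764 CPM in PEP-619WW, just under 2-fold (0.94, 0.77 to 1.12), and the cholesterol exporter *Abca1* had 29 and 50 UMIs (0.81, 0.12 to 1.52). In the other direction, the sterol-sensing nuclear receptor *Nr1h3*, which encodes LXR alpha and activates *Abca1* and *Apoe*, was at 181 CPM in PEP-WT and 111 CPM in PEP-619WW (-0.71, -1.07 to -0.36). The tetraspanin gene *Cd9* had a ratio of -0.99 (-1.51 to -0.50).

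**Figure D4:**
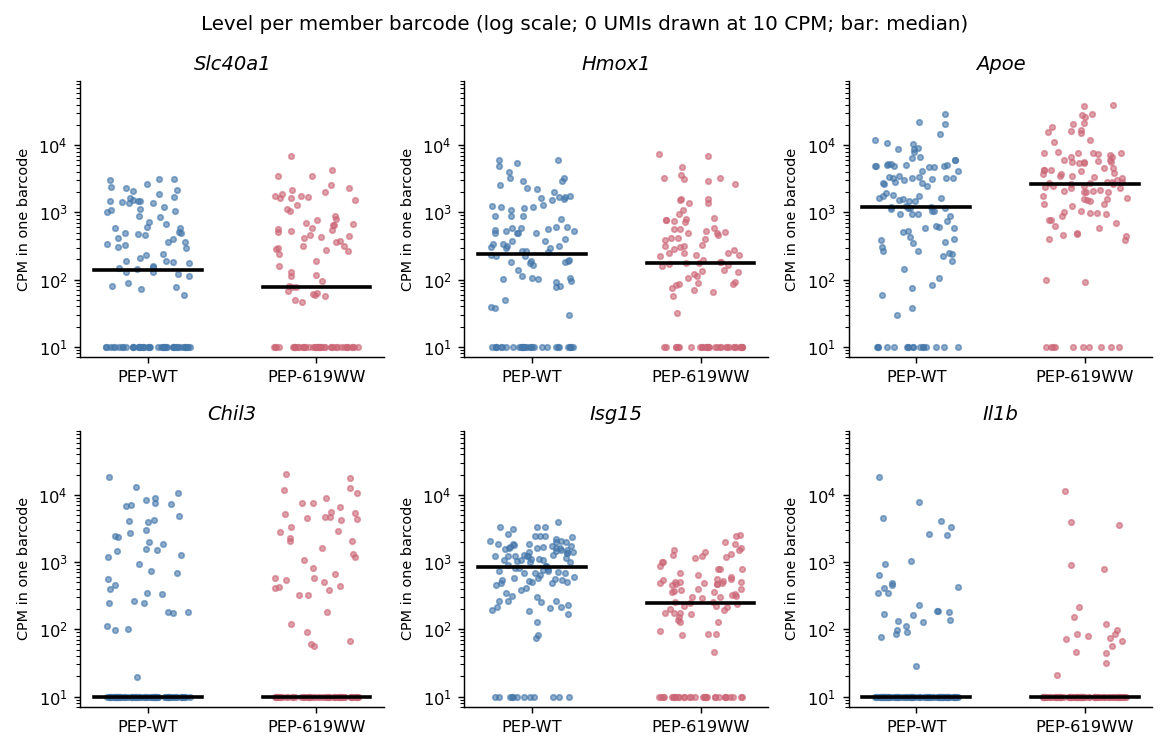
Level of 6 genes in each member barcode, PEP-WT (108 barcodes) in blue and PEP-619WW (101) in red, as CPM on a log axis with 0 UMIs drawn at 10 and the bar at the median. Isg15 is shifted down and Apoe up in PEP-619WW with wide overlap, Slc40a1 and Hmox1 overlap over their whole range, and Chil3 and Il1b are absent from most members.

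Receptors and opsonins for the uptake of dying cells were tested for 17 genes, of which 1 was 2-fold higher and 1 lower (beside 0.945% and 1.64% of all genes), with a median of 0.10. The higher one was the scavenger receptor gene *Cd36* (23 and 74 UMIs, 1.71, 1.02 to 2.45). The lower one was *Marco*, a scavenger receptor of marginal zone macrophages, with 70 and 3 UMIs, of which 49 came from 1 PEP-WT barcode. The log2 ratio of *Marco* was -4.52 over all members and -0.08 among members with a *Spic* UMI. The second value rests on at most 3 PEP-619WW UMIs, so it does not show that *Marco* was level. *Mertk* was at 83.9 CPM in PEP-WT and 121 CPM in PEP-619WW (0.53, 0.11 to 0.95, and -0.18 among members with fewer than 2 markers of other cell types), *Axl* at 228 CPM in PEP-WT and 242 CPM in PEP-619WW (0.08, -0.19 to 0.35), and *Cd5l*, an inhibitor of cell death secreted by macrophages, at 144 CPM in PEP-WT and 153 CPM in PEP-619WW (0.09, -0.25 to 0.43).

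Among 13 complement genes tested, 1 was 2-fold higher and 1 lower (beside 0.945% and 1.64% of all genes). The receptor gene *C3ar1* was 2-fold higher (18 and 54 UMIs, 1.61, 0.81 to 2.46) and *Itgax*, which encodes the CD11c chain of complement receptor 4, 2-fold lower (94 and 43 UMIs, -1.11, -1.66 to -0.57). *C1qc* was at 1163 CPM in PEP-WT and 1692 CPM in PEP-619WW (0.54, 0.43 to 0.65), while *Cfb*, factor B of the alternative pathway, was at 689 CPM in PEP-WT and 419 CPM in PEP-619WW (-0.72, -0.90 to -0.54). Of 7 Fc receptor list genes tested, none passed 2-fold (beside 2.59% of all genes), and the intervals of *Fcgr3* (0.54, 0.29 to 0.79) and *Fcgr4* (0.48, 0.30 to 0.67) lay above 0.

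The 29 lysosomal genes tested had a median of 0.11 and held 0 genes past 2-fold in either direction, beside 2.59% of all genes. The interval lay above 0 in 10 and below 0 in 3. The largest positive ratio was that of *Lgmn*, the protease legumain, at 462 CPM in PEP-WT and 657 CPM in PEP-619WW (0.51, 0.33 to 0.68), followed by the membrane proteins *Lamp1* (0.44) and *Lamp2* (0.39) and by *Grn*, which encodes progranulin (0.37). Cathepsins B, C, D and S (*Ctsb*, *Ctsc*, *Ctsd*, *Ctss*) had ratios of 0.22, 0.32, 0.35 and 0.17, all with intervals above 0. In the monocyte gate these were 0.03, -0.05, 0.38 and -0.06.

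Interferon gamma-induced genes leaned lower in PEP-619WW. Of 31 tested, 25 had a ratio below 0, the interval lay wholly below 0 in 11 and wholly above 0 in 1, and the median was -0.19. Of these 0 were 2-fold higher and 2 lower, beside 0.945% and 1.64% of all genes. The chemokine gene *Cxcl9*, which recruits T cells, was at 1114 CPM in PEP-WT and 551 CPM in PEP-619WW (-1.02, -1.17 to -0.87), with a UMI in 57.4% and 53.5% of members. It was at least 2-fold under 9 of 12 alternatives within the first run, and at -0.86 as a mean of the members' own CPM. In the monocyte gate the ratio of *Cxcl9* was 0.22, while the median of the whole list was -0.18 there and -0.26 over all other barcodes. *Ubd*, which encodes the ubiquitin-like protein FAT10, had 78 and 34 UMIs (-1.18, -1.80 to -0.58). The immunoproteasome subunit genes *Psmb8* and *Psmb9* had ratios of -0.46 and -0.41. The guanylate-binding protein gene *Gbp2* was higher (0.29, 0.15 to 0.44), and the checkpoint ligand gene *Cd274*, which encodes PD-L1, was at 206 CPM in PEP-WT and 237 CPM in PEP-619WW (0.20, -0.08 to 0.48).

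No MHC class II presentation gene of 10 tested passed 2-fold (beside 2.59% of all genes), and their median was -0.09. The invariant chain gene *Cd74* was at 8025 CPM in PEP-WT and 7912 CPM in PEP-619WW (-0.02, -0.07 to 0.02), *H2-Ab1* at 4667 CPM in PEP-WT and 3740.1 CPM in PEP-619WW (-0.32, -0.38 to -0.26) and *H2-Aa* at 4003 CPM in PEP-WT and 3948 CPM in PEP-619WW (-0.02, -0.08 to 0.04). Among the members with fewer than 2 markers of other cell types the median was -0.33. The 20 MHC class I presentation genes had 0 past 2-fold (beside 2.59% of all genes) and a median of -0.13.

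**Figure D5:**
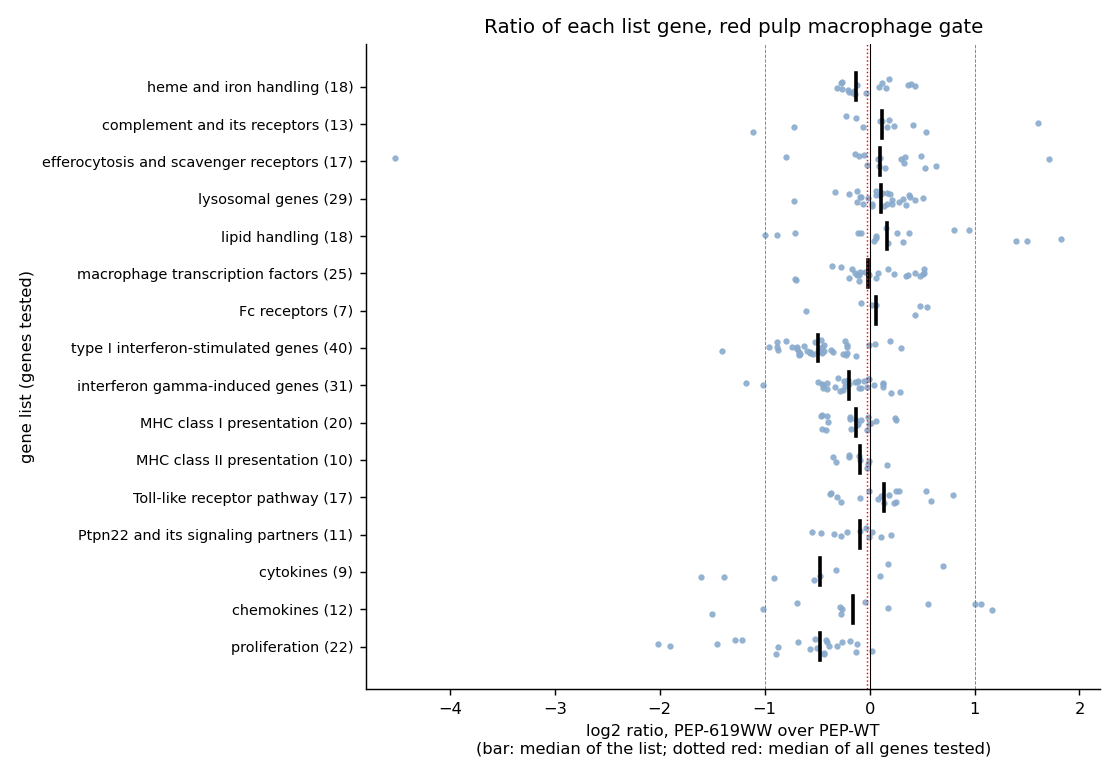
Log2 ratio of PEP-619WW over PEP-WT for each tested gene of 16 lists, 1 point per gene, with the number of genes in parentheses, a black bar at the median of the list and a dotted red line at the median of all genes (-0.02). The type I interferon-stimulated genes lie to the left of 0 with a median of -0.49, heme and iron handling genes lie around 0, and 3 lipid-handling genes lie beyond 1.

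Of 9 cytokine genes tested, 6 had a ratio below 0, with the interval below 0 in 5 and above 0 in 1. None was 2-fold higher and 2 were 2-fold lower (beside 1.64% of all genes), with a median of -0.47. *Il1b*, which encodes interleukin 1 beta, was at 370.05 CPM in PEP-WT and 121 CPM in PEP-619WW (-1.61, -1.92 to -1.31), with a UMI in 28.7% and 19.8% of members, and the highest barcode held 22.1% and 44.9% of its UMIs. *Osm*, which encodes oncostatin M, had 61 and 23 UMIs (-1.39, -2.15 to -0.67). The interleukin 1 receptor antagonist gene *Il1rn* had a ratio of -0.92 (-1.46 to -0.39). *Il18bp*, which encodes the binding protein that blocks interleukin 18, was higher (0.70, 0.44 to 0.95), and *Il18* was at -0.53 (-0.98 to -0.09).

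Neutrophil genes were also lower in the sum over all members. Of 5 neutrophil markers tested 3 were 2-fold lower and 0 higher, beside 1.64% and 0.945% of all genes. *S100a9* was at 2038 CPM in PEP-WT and 968 CPM in PEP-619WW (-1.07, -1.19 to -0.96), *Retnlg* had 538 and 123 UMIs (-2.11, -2.40 to -1.82) and *Cxcr2* had 45 and 12 UMIs (-1.89, -2.94 to -0.94). *S100a9* was present in 34 PEP-WT and 49 PEP-619WW members, so more barcodes carried it in the library where its sum was lower, and the highest barcode held 19.7% and 45.7% of its UMIs. In the monocyte gate *S100a9* was at 1958 and 3060.4 CPM, the reverse order. Among the members with fewer than 2 markers of other cell types, neutrophil markers included, the log2 ratio was 1.45 for *S100a9*, 0.31 for *Retnlg* and -2.56 for *Il1b*. *S100a9* and *Retnlg* are among the markers by which members were left out there, so their turned signs show no direction. The part of neutrophil RNA in the cytokine values was not tested.

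Of 12 chemokine genes tested, 3 were 2-fold higher and 2 lower, beside 0.945% and 1.64% of all genes, and the median was -0.16. *Ccl6* was at 251 CPM in PEP-WT and 563 CPM in PEP-619WW (1.17, 0.95 to 1.39), and *Ccl9* (45 and 89 UMIs, 1.01, 0.47 to 1.56) and the eosinophil attractant *Ccl24* (37 and 76 UMIs, 1.06, 0.47 to 1.67) were also higher. Across 12 alternatives within the first run the ratio of *Ccl9* lay between 0.48 (members with a *Spic* UMI) and 3.19 (members with fewer than 2 markers of other cell types), and it was at least 2-fold under 9. The highest barcode held 46.1% of the *Ccl24* UMIs of PEP-619WW. The lower genes were *Cxcl9*, given above, and platelet factor 4 (*Pf4*, 129 and 45 UMIs, -1.5, -2.02 to -1.0), the only platelet marker tested. *Pf4* was at 90.1 and 25.1 CPM in the monocyte gate, and its ratio in the members came as near to 0 as -0.47 across the alternatives.

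Cell division genes leaned lower in PEP-619WW. Of 22 proliferation genes tested, 5 were 2-fold lower and 0 higher, beside 1.64% and 0.945% of all genes, with a median of -0.47, beside -0.02 for all genes, and 21 ratios below 0. The interval lay wholly below 0 in 12 of the 22 and wholly above 0 in none. *Mki67*, a marker of cycling cells, had 159 and 42 UMIs (-1.90, -2.43 to -1.40), in 26 and 21 barcodes. *Top2a*, which untangles replicated DNA, had 134 and 57 UMIs (-1.21, -1.69 to -0.75) and *Ube2c*, which drives exit from mitosis, 92 and 33 UMIs (-1.46, -2.08 to -0.87). In the monocyte gate the ratios of these genes were 0.19, 0.04 and -0.15. As a mean of the members' own CPM the log2 ratio of *Ube2c* was -0.24. *Ube2c* was among the 15 genes at 100 or more UMIs that were also 2-fold lower in thinned members. *Mki67* and *Top2a* were not.

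*Ptpn22*, the gene that differs between the mice (chr3:103859795-103912247, plus strand), was at a low level in the members. They had 58 and 66 UMIs, or 58.6 CPM in PEP-WT and 67.7 CPM in PEP-619WW (0.21, -0.32 to 0.74), in 36 and 33 barcodes, and counts per gene do not show which allele was transcribed. Its level was 50.4 and 42.8 CPM in the monocyte gate, 51.3 and 67.0 CPM in the B cell gate and 185 and 224 CPM in the T cell gate. At 2000 UMIs a UMI was found in 8.54% and 9.46% of members, against 14.3% and 13.3% in the B cell gate. Whether these UMIs came from the macrophages themselves was not tested. Of 11 tested genes of its signaling partners and relatives 0 passed 2-fold (beside 2.59% of all genes), and the median was -0.09. The Src family kinase genes *Lyn* (0.03, -0.19 to 0.24) and *Fgr* (-0.09, -0.41 to 0.23) had intervals that held 0, and that of the phosphatase gene *Ptpn6* (-0.55, -0.78 to -0.32), which encodes SHP-1, lay below 0. The 17 Toll-like receptor pathway genes had 0 past 2-fold (beside 2.59% of all genes) and a median of 0.13.

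Members of the same library differed by whether a *Spic* UMI was seen. Those with one numbered 54 in PEP-WT and 52 in PEP-619WW and were deeper (median 9917 and 12488 UMIs) than the 54 and 49 without (4721 and 2907). *Slc40a1* was at 555 and 502 CPM in members with a *Spic* UMI and at 107 and 128 CPM in those without, and *Hmox1* at 619 and 568 against 310.3 and 203 CPM. *Ly6c2* did not part the sets in this way, at 1538 and 1286 CPM with and 1397 and 1484 CPM without. The log2 ratio between libraries was -1.51 with and -1.19 without a *Spic* UMI for *Isg15*, 1.45 and 1.60 for *Apoe*, and -0.15 and 0.25 for *Slc40a1*.

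Leaving out hemoglobin, immunoglobulin, T cell receptor, ribosomal protein and mitochondrially encoded genes, 9 genes at 100 or more UMIs were higher and 15 lower both over all members and in thinned members. *Trem2*, *Ccl6*, *Ccl24*, *Mki67*, *Top2a* and *S100a9*, 2-fold over all members as given above, were not among them. The largest ratio among the 9 higher genes was that of *Fn1*, which encodes fibronectin (72 and 222 UMIs, 1.65, 1.26 to 2.05), in 12 and 16 barcodes. Across 12 alternatives within the first run it lay between 1.24 (members with a *Spic* UMI) and 3.12 (members with fewer than 2 markers of other cell types). *Fn1* is also 1 of the inflammatory monocyte markers. It was at 403 and 725 CPM in the monocyte gate (log2 ratio 0.85), and its ratio over all other barcodes was 0.82. *Selenop*, a secreted selenium carrier, was at 151 CPM in PEP-WT and 342 CPM in PEP-619WW (1.18, 0.90 to 1.47), and the zinc-binding metallothionein gene *Mt1* at 98.1 CPM in PEP-WT and 204 CPM in PEP-619WW (1.06, 0.70 to 1.42). Outside the members *Mt1* was higher in PEP-619WW too, with ratios of 1.75 in the B cell gate, 1.34 in the T cell gate, 0.66 in the monocyte gate and 1.27 over all other barcodes. The protease inhibitor gene *Slpi* (1.35, 1.11 to 1.60) drew 59.8% of its PEP-619WW UMIs from 1 barcode, and without the highest barcode of each library its ratio was 0.34. Among members with fewer than 2 markers of other cell types the ratio of *Slpi* had the opposite sign (-0.63). *Smim4* (1.21, 0.72 to 1.71) and *Fkbp5*, a glucocorticoid-induced gene (1.04, 0.49 to 1.60), completed the higher genes beside those described above. The largest negative ratio among these genes was that of *Ctla2a*, a cysteine protease inhibitor (171 and 25 UMIs, -2.75, -3.42 to -2.14), in 29 and 8 barcodes. Its ratio was -1.01 among members with fewer than 2 markers of other cell types and -1.57 in thinned members. In the T cell gate *Ctla2a* was higher in PEP-619WW (431 and 699.9 CPM). The part of the NK cell markers, lower in the members as given above, was not tested. *Ass1*, the arginine-producing argininosuccinate synthase, was at 139.5 CPM in PEP-WT and 50.3 CPM in PEP-619WW (-1.47, -1.97 to -0.99), and the stress-response gene *Gadd45b* at 133 CPM in PEP-WT and 58.5 CPM in PEP-619WW (-1.19, -1.66 to -0.73). The cyclin D1 gene *Ccnd1* (-1.26, -1.89 to -0.65), the carbonic anhydrase gene *Car2* (-1.18, -1.60 to -0.78), also an erythroid marker, *Nfkbib*, an inhibitor of NF-kB (-1.02, -1.62 to -0.44), and the histone gene *Hist1h1e* (-1.01, -1.52 to -0.51) were lower as well. *Car2* was seen in only 9 and 4 barcodes, 1 of which held 58 of its 72 PEP-619WW UMIs, and its ratio was -2.83 without the highest barcode of each library and -0.03 at 10 or more C1q UMIs. Of 12 alternatives within the first run, *Ccnd1* and *Mt1* were at least 2-fold under 10 each, *Car2* under 8, *Slpi*, *Fkbp5* and *Hist1h1e* under 7 each and *Nfkbib* under 6, and as a mean of the members' own CPM the ratio of *Hist1h1e* was 0.06. The ratio nearest to 0 was -0.66 for *Ccnd1* and -0.39 for *Gadd45b*.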

How the data were processed

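Gene by barcode tables of UMI counts were deposited by the authors as whole numbers, with 32285 genes, 2 runs per genotype and no normalization. The libraries were made with 10x Genomics 3′ chemistry, and the submitters' processing notes name Cell Ranger 6.0.0 and mm10. Every barcode held at least 500 UMIs. Counts per gene came from transcript 3′ ends, so levels were not divided by gene length.

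The first run was used for all values except those credited to the second, with 14821 PEP-WT and 8576 PEP-619WW barcodes and totals of 77916082 and 56745578 UMIs. UMIs were summed over the members and divided by their total. Genes with at least 50 UMIs over both libraries were called at 2-fold. Intervals were exact at 95% (Poisson for levels, conditional binomial for ratios, Clopper-Pearson for shares) and cover counting error only. A sum of 0 was set to a floor of 3 UMIs for ratios, which are then bounds. With 1 library per genotype no test was run, and no doublet caller was used beyond the absence of *Cd3e* and *Cd79a*.

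The members and gene lists were chosen with earlier results of these data known. Genes were named from the lists, by the largest ratio (at least 100 UMIs, also 2-fold when thinned to 2000 UMIs, outside hemoglobin, immunoglobulin, T cell receptor, ribosomal protein and mitochondrially encoded genes), by level, by fold over other barcodes, and *Ptpn22*. Promoters were RefSeq windows of GRCm38.p6. Ratios and intervals were computed with scipy 1.17.1 and numpy 2.4.6 under Python 3.11.15, tables with pandas 2.3.3 and plots with matplotlib 3.10.9. The ratios were tested on simulated Poisson counts without variation between cells, so that test does not cover genes carried by few barcodes.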

Additional observations from a re-analysis of the deposited data

Results flagged for a closer look

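The second deposited run of each genotype was outside the comparisons above, apart from the values credited to it, and held cells that met the same gate. They numbered 2352 of 9539 barcodes in PEP-WT and 104 of 11029 in PEP-619WW. The study's methods give the barcode numbers of this second run and do not describe the first. *Spic* was at 5.74 and 1.20 CPM in these cells, and the reason for the gap between the shares was not tested.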

How the results depend on the processing

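No paired analysis was possible because each genotype had 1 library, and no library could be left out in turn. The 46 higher and 80 lower of 4869 genes tested became 19 and 32 of 1102 among members with fewer than 2 markers of other cell types (6 and 6 of them called over all members too), 626 and 550 of 10509 in the second run, 8 and 15 of 907 in members thinned to 2000 UMIs, 160 and 262 as a mean of the members' CPM, 184 and 239 of 7599 at 20 UMIs, 9 and 14 of 1433 at 200 UMIs and 887 and 837 of 11281 at 1 UMI in both libraries. Higher genes were 36.5% of calls, against 53.2% in the second run, 51.5% at 1 UMI and 47.3% among members with a *Spic* UMI.

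Median log2 ratios in members with fewer than 2 other markers were 0.23 for heme and iron, -0.64 for type I interferon-stimulated and -0.33 for MHC class II genes. *Bst2*, an interferon-stimulated gene, is among the markers by which members were left out there. The value of -0.64 is thus not independent of that choice. In the second run they were 0.86 for interferon-stimulated and 1.67 for MHC class II genes, and thinning gave -0.33 for interferon-stimulated genes. The log2 ratio of summed hemoglobin UMIs was -4.14 at 10 C1q UMIs, -5.95 at 2 *Vcam1* UMIs, -5.46 without members holding other markers, at most -6.41 in the second run, -4.55 thinned, -4.37 as a mean of CPM, -6.19 with *Spic* and -6.00 without the highest barcode.

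The share of barcodes in the gate was 0.513% (PEP-WT) and 0.700% (PEP-619WW) at 10 C1q UMIs, 0.445% and 0.700% at 2 *Vcam1* UMIs, 0.310% and 0.408% without members holding other markers, 0.364% and 0.606% with *Spic*, and 24.7% and 0.943% in the second run. It was 0.933% in PEP-619WW without members over 1% immunoglobulin or hemoglobin.

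Of 871 values of single genes, 603 stayed within counting error, 250 moved further and 18 reversed, meaning that a gene at least 2-fold as reported took the opposite sign. One of the 18, *Ubd* in the second run with 4 and 0 UMIs, has its sign only from the floor of 3 UMIs, so it shows no direction. Genes under 2-fold that changed sign are counted by size, so *Hmox1* is among those that moved and *Actb*, *Cd74* and *H2-Aa*, scaled by the median ratio, are among those within counting error. Without members holding other markers the reversed log2 ratios were those of *Slpi* (-0.63), *Retnlg* (0.31) and *S100a9* (1.45). *Retnlg* and *S100a9* are among the markers by which those members were left out, so their signs there show no direction. *Slpi* was at -0.57 without members over 1% immunoglobulin or hemoglobin, and *Hist1h1e* at 0.061 as a mean of CPM. In the second run, whose gate held few *Spic* UMIs, they were *Smim4* (-0.17), *Selenop* (-0.025), *Mt1* (-0.83), *Fkbp5* (-0.19), *Ctla2a* (3.45), *Il1b* (1.97), *Ass1* (1.68), *Isg15* (0.71), *Car2* (4.16), *Ubd* (at most 4.66), *Itgax* (0.99), *Cxcl9* (0.52) and *S100a9* (1.09). The causes were not tested. The gate on *Spic*, the limit on immunoglobulin and hemoglobin and the removal of the highest barcode were chosen after seeing the data. With about 100 members a library, a gene near 50 UMIs rests on few cells, and differences under 2-fold there were often within counting error.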

Other observations

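Genes of glycolysis and the response to low oxygen leaned higher in PEP-619WW. Of 16 tested, 13 had a log2 ratio above 0, and the interval lay above 0 in 5 and below 0 in 1. None passed 2-fold (beside 2.59% of all genes), and the median was 0.22 beside -0.02 for all genes. Of 4 metallothionein and zinc genes tested, 1 was 2-fold higher and 0 lower (beside 0.945% and 1.64% of all genes), with a median of 0.70. The higher one was *Mt1*. *Mt2*, which lies beside it, had 24 and 39 UMIs (0.72, -0.05 to 1.52).

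Of 6 alternative activation genes tested, 1 was 2-fold higher (beside 0.945% of all genes) and 5 had ratios above 0. The gene past 2-fold was *Ccl24*, given above, and *Chil3* followed (0.86, 0.77 to 0.95), with a UMI in 38.9% and 44.6% of members. *Chil3* was at 5267 and 6243 CPM in the monocyte gate. Of 25 macrophage transcription factor genes tested, 0 passed 2-fold in either direction (beside 2.59% of all genes) and the median was -0.01. *Maf* was at 274 CPM in PEP-WT and 286 CPM in PEP-619WW (0.06, -0.18 to 0.31), while *Nr1h3*, given above, lay below 0. The 17 immediate early and heat shock genes, which can be raised when tissue is dissociated, had 0 past 2-fold (beside 2.59% of all genes) and a median of -0.08. *Fos* was at 768 CPM in PEP-WT and 837 CPM in PEP-619WW (0.12, -0.02 to 0.27). *Jun* was at 288 CPM in PEP-WT and 191 CPM in PEP-619WW (-0.59, -0.87 to -0.32).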
